A study of Saccharomyces cerevisiae with 6 samples.

Results

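The promoters of genes for proteins of the large ribosomal subunit were described in transposon calling cards libraries of 6 transcription factors (TFs) of budding yeast. Members were the genes whose symbol is RPL followed by a digit, which leaves out the MRPL genes of the mitochondrial ribosome. The gene table holds 76 such genes, and 16 of their promoters could be located in the insertion files, 5 on chromosome II, 8 on chromosome IV and 3 on chromosome V. In all, 805 promoters were located, on chromosomes I to V only, so all placed promoters are not a background of the whole genome. Of the other RPL genes, 57, all on chromosomes VI to XVI, carried no score in the copy of the score tables used here and were not analysed here. RPL32 and RPL12B held fewer than 10 insertions and RPL35A could be matched to more than 1 place, so these 3 were not located either. The 16 are therefore the RPL promoters of a part of the genome that hold at least 10 insertions, not all RPL promoters.

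The libraries were made for Sfp1, Eds1, Ino4, Zap1, Leu3 and Rgt1, with 1 library per TF. All were made in strain BY4741 with SIR4 deleted (sir4D), a plasmid supplying the TF joined to Sir4p and a second plasmid a Ty5 retrotransposon under the GAL1/10 promoter. Ty5 integrates where Sir4 is held on DNA, so insertions gather near places where the fused TF was present. A single insertion does not by itself show that the TF was there. Each library grew from a single clone on galactose, so TF levels are those of a plasmid-borne fusion and no library has a replicate. The libraries held 15951 to 75550 insertions, with 35758 for Sfp1, and medians of 3 to 34 reads behind an insertion, with 27 for Sfp1.

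Cytosolic ribosomal proteins are made in near-equal amounts and are among the most highly transcribed genes of growing yeast. Many are encoded by a pair of paralogous copies, named A and B. Their promoters are typically bound by Rap1, with Fhl1 and Ifh1, and Sfp1 is a zinc finger activator of ribosomal protein and ribosome biogenesis genes that responds to nutrients through TOR signaling. Zap1 regulates zinc homeostasis, Ino4 phospholipid synthesis, Leu3 branched-chain amino acid synthesis and Rgt1 glucose transporter genes.

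The Sfp1 library had the highest share of its insertions in the 16 RPL promoters. It placed 119 insertions there, 0.333% of the library with an exact binomial 95% interval of 0.276% to 0.398%. Zap1 followed with 42 insertions, 0.262% (0.189% to 0.354%). Ino4 had 30 insertions, 0.188% (0.127% to 0.268%), and Eds1 57 insertions, 0.186% (0.141% to 0.240%). Leu3 had 86 insertions but only 0.114% of its library (0.0911% to 0.141%), and Rgt1 21 insertions, 0.0705% (0.0437% to 0.108%). Of the insertions in all placed promoters, the RPL promoters held 2.12% for Sfp1 and 1.99% for Zap1. They held 1.28% for Ino4, 1.26% for Eds1, 0.823% for Leu3 and 0.524% for Rgt1. The Sfp1 library supplied 33.5% of the 355 insertions in the RPL promoters and 17.5% of the 203761 insertions in all. Intervals here and below cover counting error only, since reads carry no molecular identifiers and libraries no replicates.

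**Figure D1:**
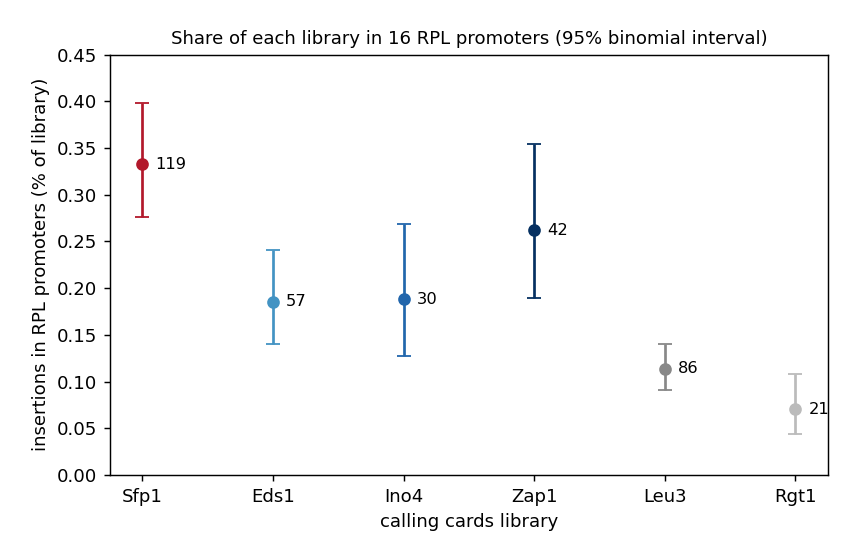
Share of each calling cards library (%, y axis) in the 16 RPL promoters, with the 95% binomial interval as bars and the number of insertions beside each point. Sfp1 lies highest at 0.333% and its interval overlaps that of Zap1 at 0.262%.

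Set against each library by itself, the Sfp1 share in RPL promoters was higher with an interval above 1 in 4 of 5 pairs. The ratio was 1.79 over Eds1 (1.30 to 2.50), 1.77 over Ino4 (1.18 to 2.74), 2.92 over Leu3 (2.20 to 3.90) and 4.72 over Rgt1 (2.95 to 7.90). Over Zap1 it was 1.27, with an interval of 0.886 to 1.85 that includes 1. The Sfp1 and Zap1 shares could thus not be told apart at this depth. In placed promoters other than RPL the same ratio ran from 1.06 over Ino4 and Eds1 to 1.19 over Zap1. Leu3 and Rgt1 had many insertions at few places, 14.05% and 44.9% of their libraries in their 10 richest 1 kb windows, against 1.91% for Sfp1, which lowers their share elsewhere. Zap1 had 9.01%, Eds1 6.77% and Ino4 2.83% there. With totals outside the richest windows of every library, the RPL share was 0.135% for Leu3 and 0.137% for Rgt1, still the lowest of the 6 libraries. Because Leu3 and Rgt1 were the most concentrated, Sfp1 was compared both with the other 5 libraries pooled and with Eds1, Ino4 and Zap1 pooled.

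Against the other 5 libraries, 4 of the 16 RPL promoters had a higher share in Sfp1 and 0 a lower one. The call was an adjusted p under 0.05 in a two-sided Fisher's exact test, with Benjamini-Hochberg adjustment over all 805 placed promoters, and 53 of these (6.58%) were called higher and 16 (1.99%) lower. The called promoters were those of RPL41B, RPL19A, RPL4A and RPL35B. At an unadjusted p under 0.05 there were 5 RPL promoters, all higher in Sfp1, the fifth being RPL41A. Of all 805, 172 (21.4%) passed, higher and lower counted together. The ratio of shares was above 1 at 15 of the 16, all but RPL23B, and at 551 of all 805 (68.4%). The median log2 ratio, with 1 insertion added to each side, was 1.23 for the RPL promoters and 0.65 for all placed promoters. The minimum of 10 insertions counts those of Sfp1. RPL4A and RPL21A, with 8 and 7 insertions in the other 5 libraries, reached it only with their Sfp1 insertions, as did 135 of all placed promoters (16.8%), so their ratios and the RPL4A call are in part set by that filter. An alternative added after seeing the data required at least 10 insertions in the other 5 libraries. It called 3 RPL promoters (RPL41B, RPL19A and RPL35B), beside 43 of the 670 promoters tested. Because each TF has a single library, these p-values set 1 library against others and say nothing of replicate spread. Of the 4 calls, those at RPL19A and RPL4A concern promoters for which several overlapping stretches held the recovered counts. A stricter placement that accepted only a single fitting stretch located 11 RPL promoters. Of these 2, RPL35B and RPL41B, were called, beside 41 of all 569 promoters then tested.

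The RPL41B promoter, at 221869 to 222417 on chromosome IV of release R61, held the most Sfp1 insertions of the 16. RPL41B encodes a very short basic protein of the interface between the ribosomal subunits. It held 19 Sfp1 insertions, against 8 for Eds1, 3 for Ino4, 5 for Zap1, 7 for Leu3 and 4 for Rgt1. The Sfp1 share was 3.31 times that of the 5 libraries (1.74 to 6.17, adjusted p = 0.00368 by Fisher's exact test). The stretch is shared with SRF1, which lies on the other side and encodes a regulator of phospholipase D, and the insertions cannot be assigned to 1 of the genes.

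RPL19A, at 415272 to 415845 on chromosome II, encodes a protein that forms a bridge to the small subunit. Its promoter held 14 Sfp1 insertions, against 3 each for Eds1 and Ino4, 2 for Zap1, 6 for Leu3 and 2 for Rgt1. The ratio was 4.11 (1.86 to 8.99, adjusted p = 0.00579 by Fisher's exact test). The stretch overlaps that of the divergent gene AAC3, a mitochondrial ADP/ATP carrier, which holds 13 of the 14 Sfp1 insertions.

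RPL4A, at 299950 to 300119 on chromosome II, encodes a protein lining the tunnel through which the new polypeptide leaves. In a stretch of 169 bp it had 9 Sfp1 insertions, against 3 for Eds1, 1 for Ino4, 4 for Leu3 and 0 for Zap1 and Rgt1. The ratio was 5.29 (1.81 to 15.7, adjusted p = 0.0164 by Fisher's exact test). This ratio is the highest of the 16, but the promoter entered only with its Sfp1 insertions. RPL35B, at 217131 to 217529 on chromosome IV, encodes a protein next to the exit of that tunnel. It had 10 Sfp1 insertions, against 0 for Eds1, 2 for Ino4, 1 for Zap1, 6 for Leu3 and 2 for Rgt1. The ratio was 4.27 (1.63 to 11.1, adjusted p = 0.0215 by Fisher's exact test). Neither of these stretches overlaps that of another placed gene.

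**Figure D2:**
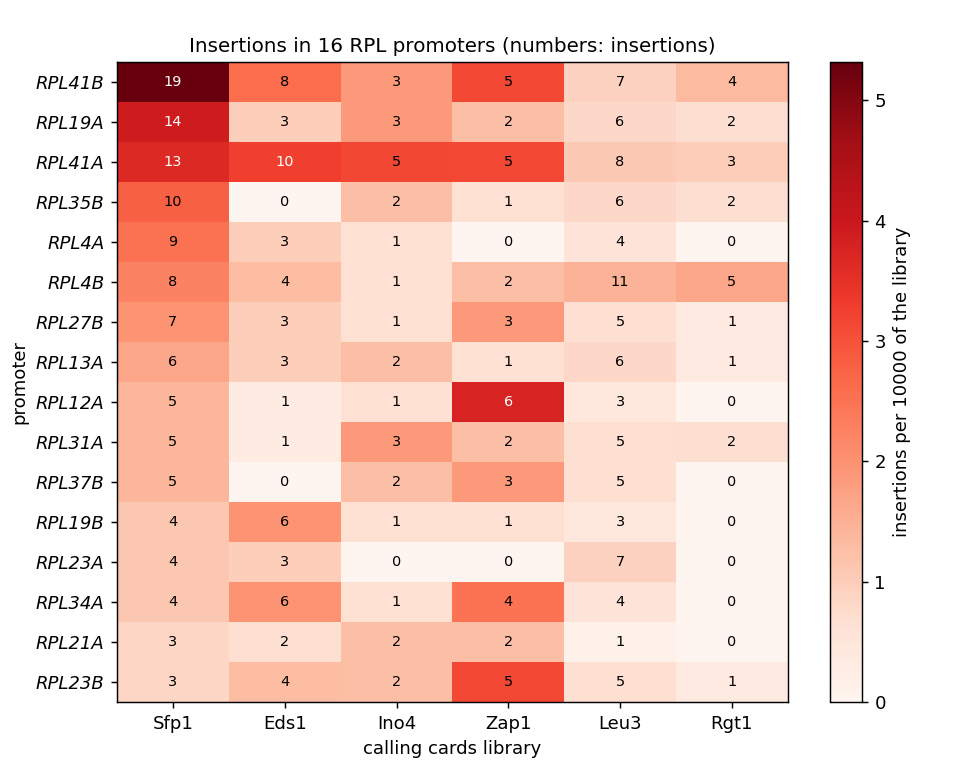
Insertions per 10000 of the library (colour) in each of the 16 RPL promoters (rows, ordered by Sfp1 insertions) and each library (columns), with the number of insertions printed. The Sfp1 column runs from 19 insertions at RPL41B to 3 at RPL21A and RPL23B.

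The 4 calls rest on few insertions, several of them close together. When positions within 5 bp in a library were counted once, RPL41B kept 13 Sfp1 positions against 26 in the other 5 libraries, RPL19A 12 against 15, RPL35B 9 against 11 and RPL4A 6 against 8. No RPL promoter was then called, and 1 of the 767 placed promoters tested was. The share of Sfp1 positions summed over the RPL promoters was then 1.69 times that of the 5 libraries (1.32 to 2.15), against 1.04 for all placed promoters.

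The other 12 RPL promoters were not called, and their ratios ran from 0.829 for RPL23B to 2.53 for RPL27B. RPL41A, the other copy of RPL41, had 13 Sfp1 insertions, against 10 for Eds1, 5 each for Ino4 and Zap1, 8 for Leu3 and 3 for Rgt1. It is the promoter with the third most Sfp1 insertions, yet its share was high in Eds1, Ino4 and Zap1 as well, with a ratio of 1.97 (0.946 to 3.88, adjusted p = 0.227 by Fisher's exact test). RPL4B had 8 Sfp1 insertions, against 4 for Eds1, 1 for Ino4, 2 for Zap1, 11 for Leu3 and 5 for Rgt1. Of the 16, it held the most Leu3 and the most Rgt1 insertions. RPL27B had 7 Sfp1 insertions, against 3 each for Eds1 and Zap1, 1 for Ino4, 5 for Leu3 and 1 for Rgt1, with a ratio whose interval included 1 (0.855 to 6.82).

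RPL13A, which shares its stretch with RPS16B for a small-subunit protein, had 6 Sfp1 insertions, against 3 for Eds1, 2 for Ino4, 1 for Zap1, 6 for Leu3 and 1 for Rgt1. RPL31A, RPL37B and RPL12A had 5 Sfp1 insertions each, against 13, 10 and 11 in the other 5 libraries together. The protein of RPL31A lies near the tunnel exit, and that of RPL12A belongs to the base of the stalk where translation factors act. RPL19B, RPL23A and RPL34A had 4 Sfp1 insertions each, against 11, 10 and 15, and RPL21A and RPL23B 3 each, against 7 and 17. At these counts a ratio of 2 cannot be separated from 1: the intervals of all 12 ratios include 1. Sfp1 and Leu3, the libraries with most insertions, had at least 1 in each RPL promoter, whereas Rgt1 had none in 7 of them, Eds1 and Zap1 in 2 each and Ino4 in 1. A count of 0 allows up to 1.01 insertions per 10000 of the library for Rgt1, 0.977 for Eds1, 1.87 for Zap1 and 1.88 for Ino4, so these zeros do not show that a promoter was missed.

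**Figure D3:**
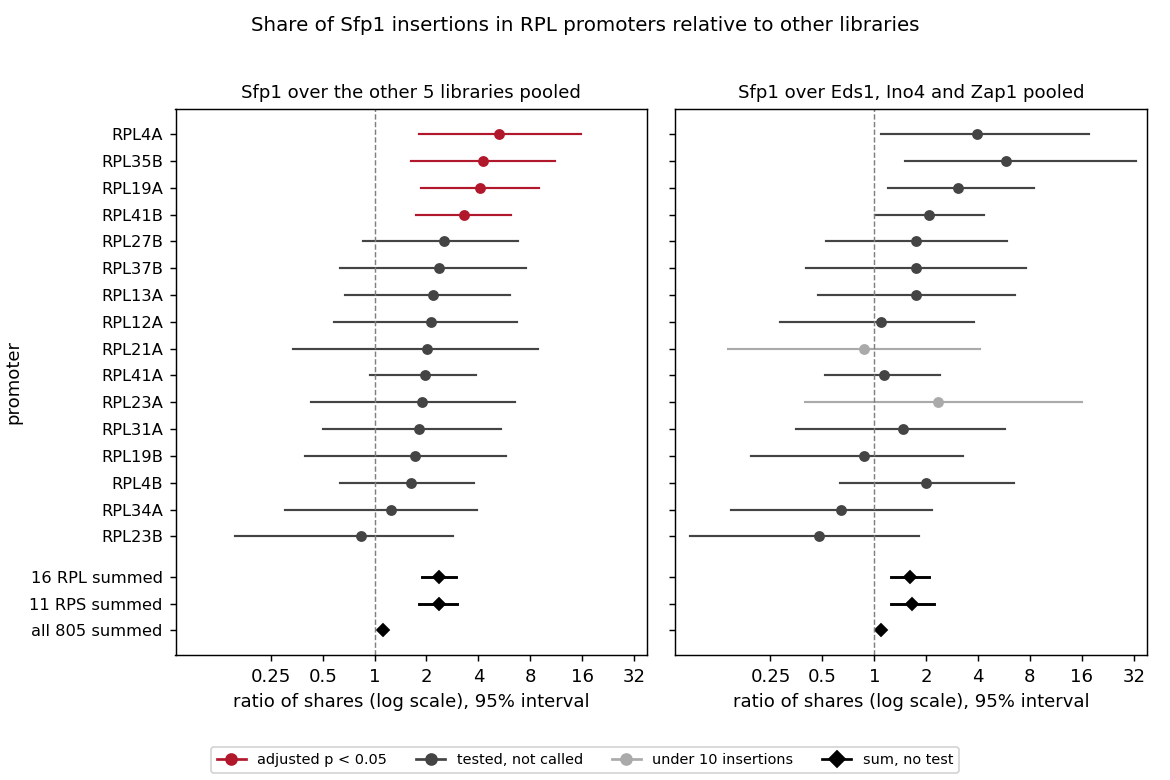
Ratio of the Sfp1 share to that of the other 5 libraries pooled (left) and of Eds1, Ino4 and Zap1 pooled (right) for each RPL promoter, on a log axis with exact 95% intervals, and for summed promoters (diamonds). On the left 4 RPL promoters are called (red); on the right none is.

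Against Eds1, Ino4 and Zap1 alone, 0 of 14 RPL promoters tested were called by Fisher's exact test with Benjamini-Hochberg adjustment over 564 promoters, of which 8 (1.42%) were called higher and 4 (0.709%) lower. RPL21A and RPL23A had too few insertions in these 4 libraries to be tested. At an unadjusted p under 0.05 there were 4, all higher in Sfp1, beside 64 of the 564 (11.3%) with higher and lower counted together. They were the promoters called against the 5 libraries, a comparison that shares the Sfp1 library and 3 of its 5 others, with ratios of 5.84 for RPL35B (1.504 to 33.0), 3.94 for RPL4A (1.10 to 17.5), 3.07 for RPL19A (1.201 to 8.44) and 2.08 for RPL41B (1.01 to 4.33). Their adjusted p-values were 0.161, 0.293, 0.247 and 0.391 by Fisher's exact test. The median log2 ratio was 0.81 for the RPL promoters and 0.22 for all placed promoters, and 11 of 16 were above that of all placed promoters. RPL23B and RPL34A lay at the other end, with ratios of 0.478 (0.0856 to 1.81) and 0.637 (0.148 to 2.15).

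Summed over the 16 promoters, the Sfp1 share was 2.37 times that of the other 5 libraries (1.88 to 2.97) and 1.62 times that of Eds1, Ino4 and Zap1 (1.25 to 2.09). These sums include RPL4A and RPL21A, which reached the minimum of 10 only with their Sfp1 insertions. With at least 10 insertions required in the other 5 libraries, an alternative added after seeing the data, the ratio to the 5 was 2.27. Over all placed promoters these ratios were 1.13 (1.09 to 1.16) and 1.10 (1.06 to 1.13). The odds ratio between RPL promoters and the other placed promoters was 2.13 (1.69 to 2.67) against the 5 libraries and 1.48 (1.14 to 1.92) against the 3. Insertions where the RPL19A and AAC3 stretches overlap, 13 of them from Sfp1, count on both sides of this comparison. Leaving out each promoter in turn gave ratios of 2.24 to 2.49 against the 5 libraries and 1.52 to 1.72 against the 3. An alternative added after seeing the data took library totals as the insertions in all placed promoters. Its ratios were 2.11 against the 5 libraries and 1.48 against the 3.

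**Figure D4:**
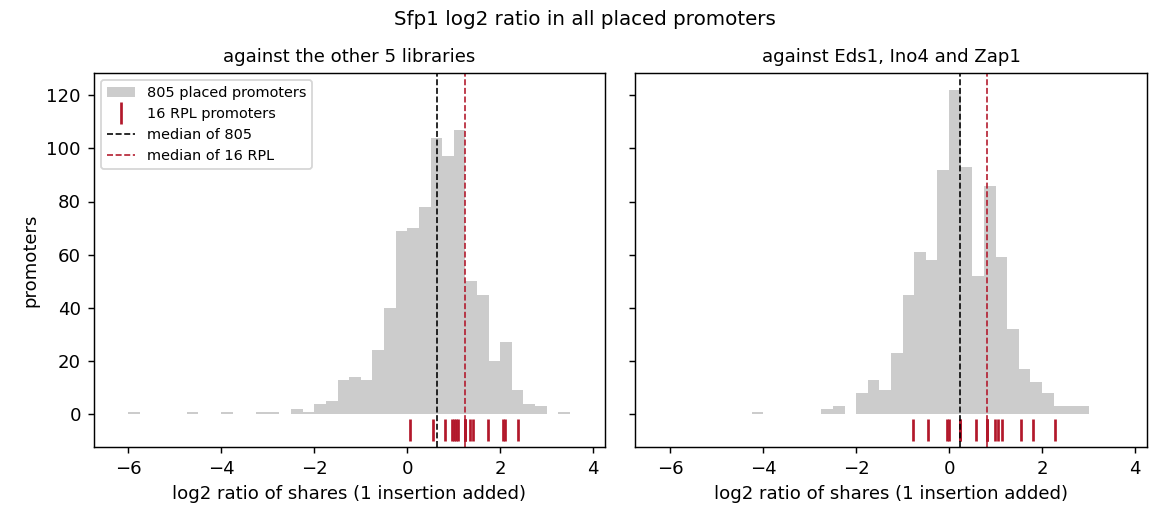
Number of placed promoters (y axis) by log2 ratio of the Sfp1 share, with 1 insertion added to each side (x axis), against the other 5 libraries (left) and against Eds1, Ino4 and Zap1 (right). Red ticks mark the 16 RPL promoters, whose medians of 1.23 and 0.81 lie above the medians of 0.65 and 0.22 of all 805.

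No other library had an RPL promoter called higher. Background calls of higher shares were 1.74% for Eds1, 0.497% for Ino4, 3.85% for Leu3, 2.98% for Rgt1 and 0.373% for Zap1. Leu3 was called lower at 1 RPL promoter, RPL41B (adjusted p = 0.0214 by Fisher's exact test), beside 6.34% of all placed promoters, and the other 4 libraries at 0, beside 1.37% for Eds1, 0.994% for Ino4 and for Zap1 and 4.6% for Rgt1. The largest departure in Zap1 was at RPL12A, with 6 Zap1 insertions against 5 for Sfp1, 1 each for Eds1 and Ino4, 3 for Leu3 and 0 for Rgt1, which was not called (adjusted p = 0.0585 by Fisher's exact test). Besides RPL12A, the promoters of RPL23B, RPL34A, RPL37B and RPL21A had a higher share in Zap1 than in Sfp1, 5 of 16 in all, and Zap1 was called at none of them. Sfp1 had the highest share of the 6 libraries at 9 of the 16, beside 222 of all 805 placed promoters (27.6%). Summed over the 16 promoters, Zap1 reached 1.57 times the share of the other 5 libraries (1.11 to 2.18). Ino4 and Eds1 were near 1, at 1.09 (0.722 to 1.58) and 1.08 (0.797 to 1.44), and Leu3 and Rgt1 were below 1, at 0.543 (0.421 to 0.694) and 0.367 (0.224 to 0.571).

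Promoters of the small-subunit (RPS) genes gave a ratio close to that of the RPL promoters, and those of the mitochondrial large-subunit (MRPL) genes a lower one. The 11 placed RPS promoters had 95 Sfp1 insertions against 190 in the other 5 libraries, a ratio of 2.35 (1.82 to 3.02), and 2 of 11 were called higher. The odds ratio of RPL to RPS promoters was 1.01, with an interval of 0.715 to 1.42. The stretch shared by RPL13A and RPS16B, with 6 Sfp1 insertions and 13 in the other 5 libraries, counts on both sides. The sets compared are therefore not separate, and the interval does not allow for this. The 6 placed MRPL promoters had 16 Sfp1 insertions against 72, a ratio of 1.04 (0.567 to 1.81), with 0 called, and the odds ratio of RPL to MRPL promoters was 2.27 (1.24 to 4.36). The 2 placed RPP promoters, of genes for the stalk proteins of the large subunit, had 1.49 (0.757 to 2.78) and the 2 placed MRPS promoters, of the mitochondrial small subunit, 1.57 (0.509 to 4.12), each with 0 called. The 8 placed promoters of ribosome biogenesis genes, which encode factors that assemble ribosomes, had a ratio of 1.55 (0.998 to 2.35) with 1 called. Their odds ratio from RPL promoters was 1.53 (0.945 to 2.52), so the difference was within counting error.

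Both copies were placed for 4 pairs. The Sfp1 ratio was 5.29 for RPL4A and 1.63 for RPL4B, 4.11 for RPL19A and 1.71 for RPL19B, 1.97 for RPL41A and 3.31 for RPL41B, and 1.88 for RPL23A and 0.829 for RPL23B. The A over B odds ratios were 3.15 (0.782 to 13.4), 2.36 (0.536 to 12.5), 0.599 (0.226 to 1.55) and 2.21 (0.305 to 18.4). All 4 intervals include 1, so a difference between copies was not detectable at this depth. RPL4 and RPL19 (copy A) and RPL41 (copy B) each had 1 called copy, which does not show that the copies differ.

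The placed stretches spanned 169 to 591 bp, with a median of 464 bp. Of the 16 genes, 8 have a divergent upstream neighbour, and 8 stretches overlap that of another placed gene. Without these 8 the summed ratio was 2.27 against the 5 libraries and 1.58 against the 3. Within the stretches 63.0% of the 119 Sfp1 insertions lay on the side of the centre towards the RPL gene, against 42.1% for Eds1, 12 of 30 insertions for Ino4, 57.1% for Zap1, 52.3% for Leu3 and 61.9% for Rgt1. At RPL41B this was 18 of 19 Sfp1 insertions and 19 of 27 of the other 5 libraries. RPL41B thus gave 18 of the 75 gene-side Sfp1 insertions. In the RPL stretches whose exact bounds are not shared with a divergent gene, the value was 64.3% of 70 insertions for Sfp1. It was 66.7% of 12 for Rgt1, 58.0% of 50 for Leu3 and 37.5% to 54.5% for the other 3. RPL19A is among these stretches, although its stretch overlaps that of the divergent gene AAC3. In all placed promoters chosen in the same way it was 50.7% for Sfp1 and 44.4% to 47.5% for the others. These shares are a description, since a stretch runs from its first to its last insertion and its centre is not a fixed distance from the start codon.

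**Figure D5:**
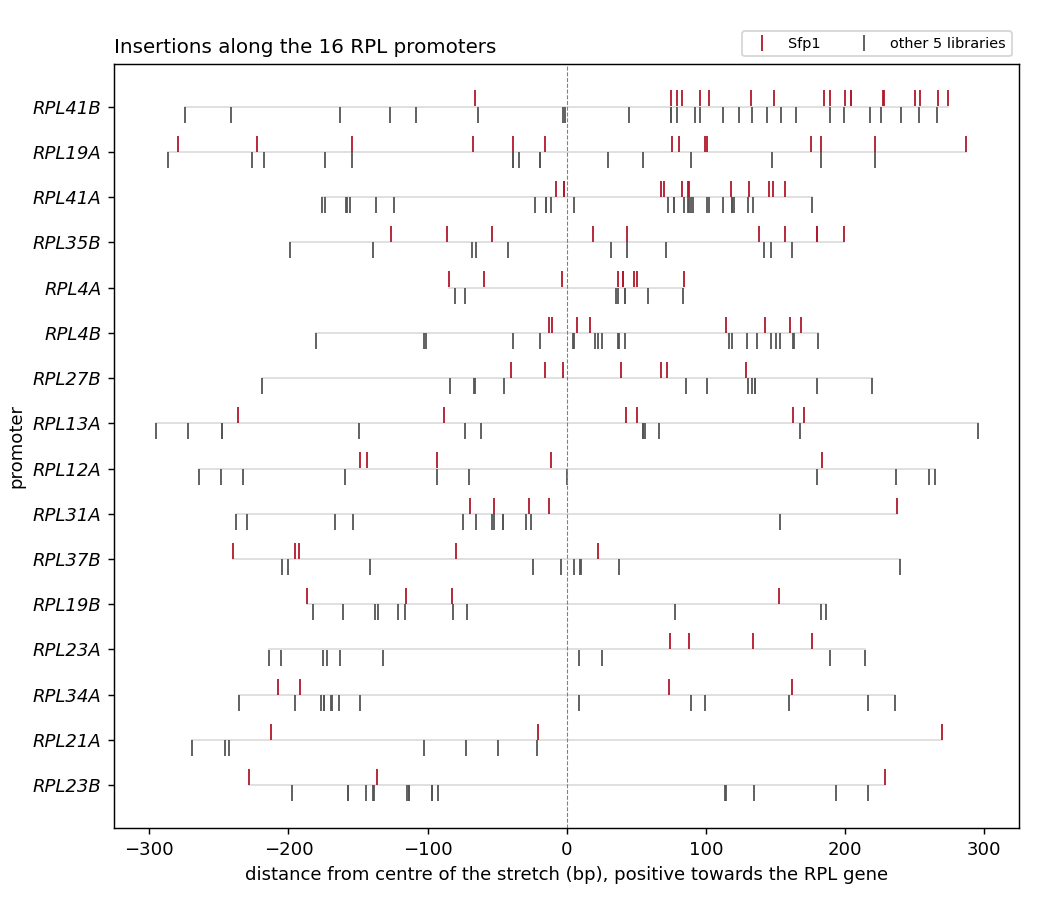
Insertions of Sfp1 (red, above each line) and of the other 5 libraries (grey, below) along the 16 placed RPL stretches, as distance from the centre of the stretch in bp, positive towards the RPL gene. At RPL41B 18 of 19 Sfp1 insertions lie on the gene side.

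Reads behind the Sfp1 insertions varied widely between promoters. The median was 19 reads over the 119 insertions in RPL promoters, against 27 over the library. It was 38 at RPL41B, 26 at RPL19A and 19 at RPL4A, but 2 at RPL35B, where no call was made with only insertions of at least 3 reads (adjusted p = 0.595 by Fisher's exact test). With that minimum 2 RPL promoters, RPL19A and RPL41B, were called against the 5 libraries, beside 44 of the 650 promoters tested.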

How the data were processed

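Genomic insertions were analysed for 6 calling cards libraries, 1 per TF. Each line of the deposited files gives an insertion and its read count, not normalized. The authors aligned reads to release R61 (Novoalign, version not given in the sources used here). Members and lists were chosen with earlier results of these data known. The planned windows of 700 bp before the start codon needed an R61 annotation, which was not used here, so promoters were located, after the files were seen, from the authors' −log10 p-value scores in their supplement. These scores follow a Poisson form inferred from their values, and were solved for whole insertion counts in the 6 libraries. A promoter was then set to the run of insertions, up to 700 bp long, that holds those counts. The scores served to locate promoters, and all reported counts were made on the deposited files. A stretch was accepted only where its file counts equalled those solved from the scores, or reached them where a score gave only a lower limit. The counts in placed promoters are therefore not independent of the scores. Gene names and gene order came from RefSeq R64, with no coordinate of it printed.

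A first version accepted only 1 fitting stretch and placed 674 genes, 11 of them RPL. It was replaced, after the RPL counts had been seen, by the version used, which takes the middle of overlapping fitting stretches and placed 960 genes, 16 of them RPL. RPL4A, RPL19A, RPL41A, RPL37B and RPL23A entered only through this change, and the stricter placement is given as an alternative.

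Per promoter, insertions inside and outside were compared by two-sided Fisher's exact test (scipy 1.17.1) with Benjamini-Hochberg adjustment over all placed promoters with at least 10 insertions in the libraries compared. Intervals are exact (95%). Named promoters were those called, the 10 with most Sfp1 insertions, and the 5 highest in each other library and lowest over all, which covers nearly all 16. Scripts were tested on simulated data. No sequences were printed.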

Additional observations from a re-analysis of the deposited data

How the results depend on the processing

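Over 24 settings and 167 values, 143 stayed within the interval or 1.5 times the main value, 24 moved and 0 reversed direction. Counts of 0 that remained 0 are among those that stayed. Some values could not move: a one-sided test for a higher share calls no lower one. Leaving out RPL promoters likewise does not change the calls over all placed promoters. The tally is thus no measure of how stable the RPL calls were. RPL calls against the other 5 libraries, 4 in the main test, were 2 with each distinct position counted once, only insertions with at least 3 reads, stretches shifted by 100 bp either way, or only RPL stretches that overlap no other gene, and 0 with positions within 5 bp counted once, where the ratio of shares was 1.69. Alternatives added after seeing the data gave 2 calls without the 2 RPL promoters with most Sfp1 insertions and 2 with the stricter placement, whose ratio was 2.16 against the 5 libraries and 1.46 against the 3. Leaving out the 2 promoters with most Sfp1 insertions, or the stretches that overlap another gene, removes the called RPL41B and RPL19A and repeats no test. The 2 calls under each of these settings were therefore fixed in advance. Leaving out Leu3 ended the call at RPL41B (adjusted p = 0.0754 by Fisher's exact test), and totals outside the 10 richest 1 kb windows ended that at RPL35B (0.0645 by the same test). The ratio ranged from 1.69 to 2.61 against the 5 libraries and from 1.44 to 1.78 against the 3, with 0 calls against the 3 under every alternative run. Calls over all placed promoters, 53 of 805 tested in the main test, were 25 of 802 with distinct positions and 44 of 650 with at least 3 reads. They were 39 of 586 with stretches shifted by -100 bp and 47 of 616 by 100 bp. Totals outside the richest windows gave 25 of 805, leaving out Leu3 26 of 629 and positions within 5 bp once 1 of 767. Against the 3 libraries such calls, 8 in the main test, were 4 with distinct positions and 0 with positions within 5 bp once. They were 5 without Ino4 and 4 with the stricter placement. Shares in RPL promoters moved as follows. With totals outside the richest windows Rgt1 had 0.137%. With positions within 5 bp once Leu3 had 0.168% and Rgt1 0.161%. Shifted by -100 bp, Sfp1 had 0.257% and Leu3 0.0768%. Shifted by 100 bp, Sfp1 had 0.241%, Eds1 0.127%, Zap1 0.187% and Leu3 0.0874%. Over the RPL stretches that overlap no other gene, by construction fewer, Sfp1 had 0.157%, Eds1 0.0944%, Ino4 0.0815%, Zap1 0.1249%, Leu3 0.0582% and Rgt1 0.0336%. No paired analysis was possible because each TF has 1 library. Windows of 500 and 1000 bp, windows cut at coding regions, the fit to the gene table, distances to the start codon and promoter motifs were not run, since no R61 annotation or sequence was used.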
